A study of Homo sapiens with 6 samples.

Results

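Interferon-stimulated genes and the sensors of RNA and DNA that can switch them on were examined in HCT116 cells and in DNMT3B KO cells. The 49 genes were chosen by symbol from a list of sensors, their adaptors, interferon-regulated transcription factors and antiviral effectors. All 49 were found, each with 1 row, among the 60666 genes of the count tables. The rule used symbols and no measured value, although the members were chosen with earlier results of these data known. The low-count filter left 16959 genes for testing, among them 40 of the 49 members.

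HCT116 is a colorectal carcinoma cell line, represented here by 3 libraries of the WT genotype. DNMT3B KO is a derivative of the same line in which the gene for the de novo DNA methyltransferase DNMT3B was knocked out, also with 3 libraries. Both lines were received as gifts and left untreated, so the KO group is represented by 1 derived line and not by independent clones. Whether the 3 libraries within a line stem from separate cultures is not stated in the labels. The p-values therefore reflect the spread among the libraries at hand, which may be technical.

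Loss of DNA methylation can allow transcription of endogenous retroviral repeats, and paired transcripts from such repeats can form double-stranded RNA. The helicases RIG-I and MDA5 detect this RNA in the cytosol and signal through MAVS, while TLR3 detects it in endosomes. IRF3 and IRF7 then induce interferons, and a complex that holds STAT2 and IRF9 binds the interferon-stimulated response element (ISRE) in the promoters of interferon-stimulated genes, a course of events known as viral mimicry. The comparison of DNMT3B KO with HCT116 cells asked whether these genes were raised in cells that lack a methyltransferase.

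Promoter windows of 6 members that changed in either direction are shown because they carry the element through which interferon acts on its targets. Each runs from 250 bases before to 50 bases after the start annotated by RefSeq on GRCh38.p14, 5′ to 3′ on the strand of the gene. Capitals mark the ISRE core GAAANNGAAA or, where it lies on the other strand, TTTCNNTTTC. The windows are chr7:93117930-93118229 (minus strand) for SAMD9, chr4:186068906-186069205 (plus) for TLR3, chr4:168480443-168480742 (minus) for DDX60L, chr12:112938224-112938523 (plus) for OAS3, chr10:89392373-89392672 (plus) for IFIT1 and chr3:122680589-122680888 (plus) for PARP14. The first 4 genes were lower in DNMT3B KO cells and the last pair were higher. DDX60, ISG15 and HERC5 also changed and hold the core, but their windows are not shown.
SAMD9: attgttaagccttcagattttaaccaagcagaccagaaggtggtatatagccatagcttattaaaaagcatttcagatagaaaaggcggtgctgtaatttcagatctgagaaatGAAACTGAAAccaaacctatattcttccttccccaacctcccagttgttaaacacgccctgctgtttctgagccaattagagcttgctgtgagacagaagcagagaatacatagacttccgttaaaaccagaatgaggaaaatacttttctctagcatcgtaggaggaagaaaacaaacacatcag
TLR3: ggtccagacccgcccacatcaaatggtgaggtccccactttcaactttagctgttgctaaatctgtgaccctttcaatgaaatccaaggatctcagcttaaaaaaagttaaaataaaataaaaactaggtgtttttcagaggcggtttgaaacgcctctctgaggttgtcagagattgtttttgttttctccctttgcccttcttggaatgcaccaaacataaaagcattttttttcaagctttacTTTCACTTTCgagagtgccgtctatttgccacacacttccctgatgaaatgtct
DDX60L: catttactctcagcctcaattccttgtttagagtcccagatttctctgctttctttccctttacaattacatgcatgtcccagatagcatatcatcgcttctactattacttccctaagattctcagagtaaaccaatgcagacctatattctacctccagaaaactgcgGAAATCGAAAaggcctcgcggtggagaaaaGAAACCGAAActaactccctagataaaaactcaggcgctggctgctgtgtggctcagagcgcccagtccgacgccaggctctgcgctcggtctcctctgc
OAS3: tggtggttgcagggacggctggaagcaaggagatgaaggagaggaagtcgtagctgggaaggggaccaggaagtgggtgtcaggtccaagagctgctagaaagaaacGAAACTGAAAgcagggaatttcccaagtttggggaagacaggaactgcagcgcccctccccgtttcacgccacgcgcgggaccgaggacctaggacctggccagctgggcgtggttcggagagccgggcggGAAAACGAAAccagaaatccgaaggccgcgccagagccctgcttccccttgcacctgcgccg
IFIT1: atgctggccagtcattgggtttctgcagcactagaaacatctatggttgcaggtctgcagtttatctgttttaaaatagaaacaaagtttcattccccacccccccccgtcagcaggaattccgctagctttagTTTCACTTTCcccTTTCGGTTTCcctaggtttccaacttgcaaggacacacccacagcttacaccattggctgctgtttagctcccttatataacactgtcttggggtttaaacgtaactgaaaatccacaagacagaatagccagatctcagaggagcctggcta
PARP14: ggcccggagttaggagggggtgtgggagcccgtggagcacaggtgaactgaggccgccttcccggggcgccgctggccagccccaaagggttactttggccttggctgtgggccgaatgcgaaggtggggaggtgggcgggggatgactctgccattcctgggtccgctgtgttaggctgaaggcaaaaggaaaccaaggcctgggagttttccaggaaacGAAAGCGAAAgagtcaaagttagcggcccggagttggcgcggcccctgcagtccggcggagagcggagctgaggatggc

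Most tested members did not pass the test in DNMT3B KO cells, and of those that did more were lower than higher, except under scaling by library totals, where the numbers were equal. Of the 40 tested members, 5 rose, 11 fell and 24 were not called at an adjusted p under 0.05 (edgeR quasi-likelihood test, Benjamini-Hochberg adjustment over all tested genes). The 16 called members were 40% of those tested, against 28.1% of all tested genes. By direction, 12.5% of the members rose against 12.9% of all genes, and 27.5% fell against 15.1%. The median log2 fold change was -0.01 over the tested members and 0.00 over all tested genes. It was -0.19 over all 49 members with no low-count filter and -0.18 over the 35 that reached 1 CPM in 3 libraries. No test was made of the members as a list, so these shares are a description.

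The members that rose were USP18, IRF7, IFIT1, HERC5 and PARP14, with log2 fold changes from 0.39 to 1.22. Those that fell were SAMD9, TLR3, CMPK2, DDX60L, OAS3, SP100, IFITM2, DDX60, DDX58, ISG15 and MAVS, with log2 fold changes from -6.29 to -0.34. At least 2-fold changes were called for 6 members, 2 higher and 4 lower, which was 15% of those tested against 12.7% of all genes. All 16 called members had libraries that did not overlap between the lines. Non-overlap was common, however, and applied to 21 tested members (52.5%) and to 45.9% of all tested genes.

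The counts of called members depended on single libraries and on scaling. Without HCT116 replicate 1, 3 members rose and 7 fell, and without HCT116 replicate 2, 8 rose and 11 fell. Leaving out HCT116 replicate 3 gave 5 and 17, DNMT3B KO replicate 1 gave 3 and 7, replicate 2 gave 4 and 6, and replicate 3 gave 3 and 6. When libraries were scaled by their totals alone, the median log2 fold change of all genes moved to 0.13 and that of the members to 0.11, and 6 members rose and 6 fell. The same scaling turned the split of all called genes from 2196 higher and 2565 lower into 3349 and 1884. SAMD9, TLR3, CMPK2, DDX60L, OAS3, SP100, USP18, IRF7 and IFIT1 passed the threshold without each library in turn and under scaling by totals.

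**Figure D1:**
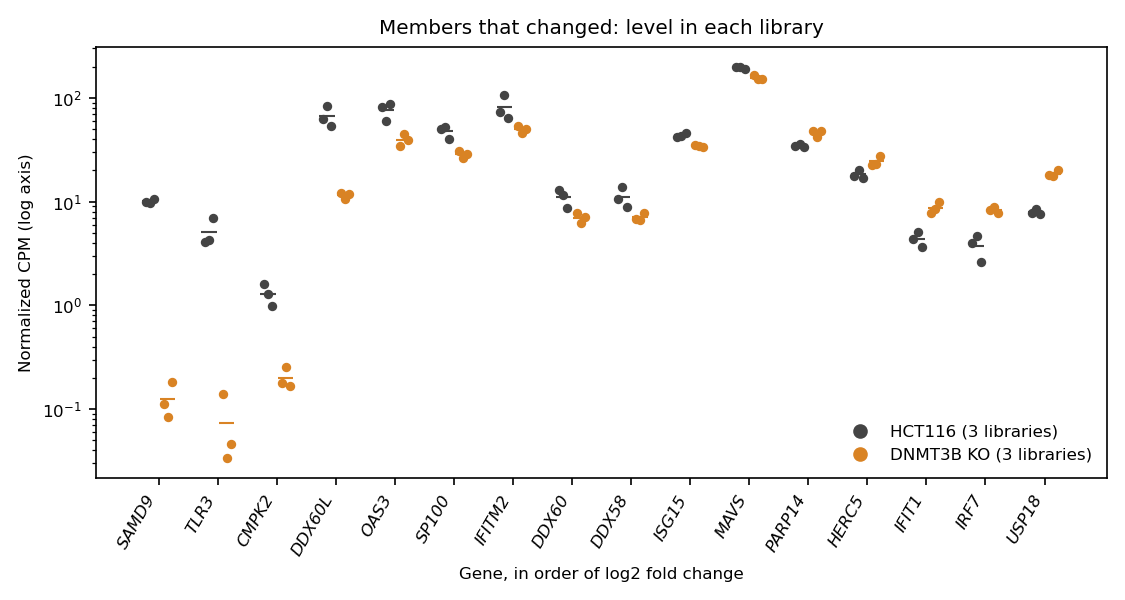
Normalized CPM (log axis) of the 16 called members in the 3 HCT116 libraries (grey) and the 3 DNMT3B KO libraries (orange), with bars at the means. SAMD9 and TLR3 sit below 0.2 CPM in every DNMT3B KO library, and USP18 moves from about 8 CPM to above 17 CPM.

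Among the 9 sensors and adaptors none rose, 5 fell (2 under scaling by totals), 3 were not called and 1 was below the filter. Thus 5 of 8 tested genes fell, against 15.1% of all tested genes, and no test was made of this group. The calls of DDX58, DDX60 and MAVS were each lost when some single libraries were left out. TLR3, the endosomal receptor for double-stranded RNA (chr4:186068911-186088073), was measured at 4.11, 4.22 and 6.96 CPM (estimated counts per 1000000 after TMM scaling) in HCT116 replicates 1 to 3. The DNMT3B KO libraries gave 0.139, 0.0335 and 0.0457 CPM, from 10, 2 and 3 estimated counts. Every HCT116 library was far above every DNMT3B KO library, and the level in the knockout was near the limit of counting. In bulk RNA, fewer cells with a transcript and less of it per cell cannot be told apart. The log2 fold change was -6.05 ± 0.50 (SE, adjusted p = 9.4e-05), a 70.2-fold lower mean, and the adjusted p stayed between 2.4e-05 and 0.0014 without any 1 library.

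DDX60L, a helicase with antiviral activity that resembles DDX60, had HCT116 levels of 62.1, 83.4 and 53 CPM. Its DNMT3B KO levels were 12, 10.6 and 11.9 CPM. The lines did not overlap, and the log2 fold change was -2.53 ± 0.17 (adjusted p = 3.8e-05). DDX60L lies next to DDX60, which promotes signalling by RIG-I-like receptors, on the minus strand of chromosome 4. DDX60 was measured at 12.9, 11.6 and 8.67 CPM in HCT116 cells and at 7.78, 6.16 and 7.1 CPM in DNMT3B KO cells. Its lines were separated by a narrow gap, with a log2 fold change of -0.66 ± 0.19 (adjusted p = 0.032). The DDX60 call was lost without HCT116 replicate 1 or any 1 of the DNMT3B KO libraries (adjusted p from 0.064 to 0.13) and under scaling by totals (adjusted p = 0.089).

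DDX58, the gene for RIG-I, gave 10.7, 13.7 and 8.93 CPM in HCT116 cells and 6.77, 6.61 and 7.74 CPM in DNMT3B KO cells. The lowest HCT116 library was close to the highest DNMT3B KO library, and the log2 fold change was -0.66 ± 0.18 (adjusted p = 0.031). This call is uncertain on 2 counts. It was lost without HCT116 replicate 1 or any DNMT3B KO library (adjusted p from 0.061 to 0.11) and under scaling by totals (adjusted p = 0.082). In addition, 42.1% of the 50-base stretches in DDX58 transcripts are also found in an overlapping gene model on the same strand, AL353671.1, which held 159 to 284 estimated counts per library.

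MAVS, the mitochondrial adaptor that relays signals from RIG-I and MDA5, was among the abundant members. It was measured at 200, 200 and 191 CPM in HCT116 cells and at 165, 151 and 152 CPM in DNMT3B KO cells. The log2 fold change was -0.34 ± 0.08 (adjusted p = 0.018), and the call was lost when HCT116 replicate 1, or either replicate 2 or replicate 3 of DNMT3B KO, was left out (adjusted p from 0.08 to 0.088) and under scaling by totals (adjusted p = 0.11). IFIH1, the gene for MDA5, had a log2 fold change of -0.31 ± 0.14 and was not called (adjusted p = 0.13). STING1, the adaptor for cytosolic DNA sensing, had close means, 18.5 ± 6.94 CPM in HCT116 cells and 18.7 ± 0.837 CPM in DNMT3B KO cells (SD, n = 3, adjusted p = 0.97 by edgeR). Without HCT116 replicate 2, its highest library, STING1 was called higher (0.36, adjusted p = 0.036). DHX58, the gene for the regulatory helicase LGP2, was not called either (log2 fold change 0.58 ± 0.61, adjusted p = 0.52). CGAS, the sensor of cytosolic DNA, held 6 estimated counts over the 3 HCT116 libraries and 3 over the DNMT3B KO libraries.

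**Figure D2:**
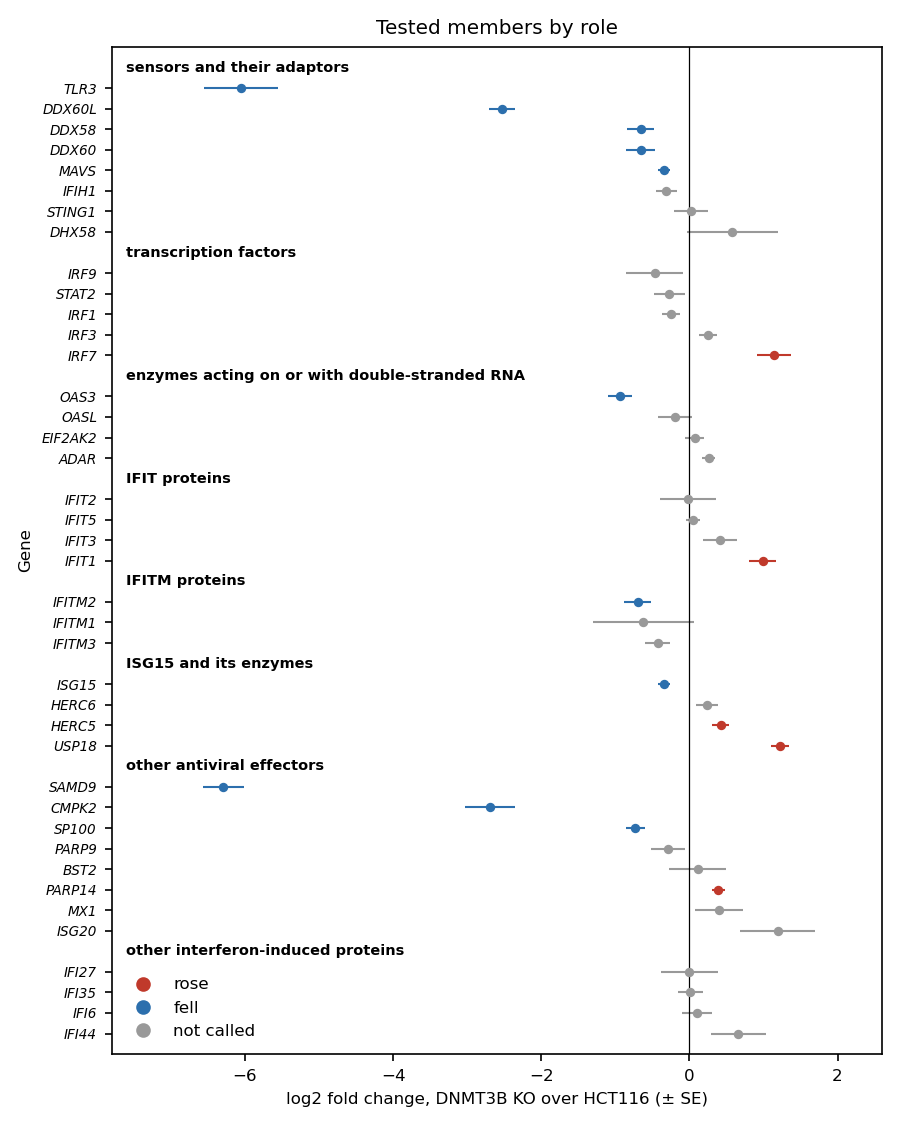
Log2 fold change of DNMT3B KO over HCT116 with its SE for the 40 tested members, grouped by role. The sensors lie at or below 0 except DHX58 and STING1, and the members that rose are spread over 4 roles.

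Of the 5 transcription factors, IRF7 rose and the other members were not called. IRF7, the interferon regulatory factor that amplifies interferon production, was measured at 4.03, 4.62 and 2.6 CPM in HCT116 cells. In DNMT3B KO cells it stood at 8.33, 8.77 and 7.74 CPM. All DNMT3B KO libraries lay above all HCT116 libraries, with a log2 fold change of 1.14 ± 0.23 (adjusted p = 0.0072), and the adjusted p stayed between 0.0018 and 0.036 without any 1 library. IRF3, the factor that first responds to sensor signalling, had a log2 fold change of 0.25 ± 0.12 (adjusted p = 0.15). IRF1, which is also induced by interferon gamma, had -0.25 ± 0.12 (adjusted p = 0.16).

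STAT2 and IRF9, which take part in the ISRE-binding complex, were not called, with log2 fold changes of -0.27 ± 0.21 (adjusted p = 0.38) and -0.47 ± 0.38 (adjusted p = 0.4). IRF9 ranged from 3.43 to 11.5 CPM within HCT116 and only from 5.13 to 5.3 CPM within DNMT3B KO. Without HCT116 replicate 3, the lowest library for each, both passed the threshold as lower (STAT2 -0.48, adjusted p = 0.029, and IRF9 -0.79, adjusted p = 0.028). An overlapping gene model, AL136295.5, shares 19.1% of the 50-base stretches of IRF9 and held 138 to 280 estimated counts per library. In HCT116 replicate 3 it held 202 estimated counts, against 173 for IRF9.

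Of the 6 enzymes that act on or with double-stranded RNA, OAS3 fell, 3 were not called and 2 were below the filter. OAS3 makes the oligoadenylates that activate RNase L. It was measured at 80.7, 59.3 and 87.2 CPM in HCT116 cells and at 34.4, 45.2 and 39.1 CPM in DNMT3B KO cells. The lines did not overlap, and the log2 fold change was -0.94 ± 0.16 (adjusted p = 0.004), with an adjusted p of at most 0.026 without any 1 library. The neighbouring OAS1 and OAS2, enzymes of the same kind in the same cluster on chromosome 12, were below the filter. OAS1 held 53 estimated counts over the HCT116 libraries, 37 of them in replicate 2, and 11 over the DNMT3B KO libraries, and without HCT116 replicate 3 it entered the test and was called (log2 fold change -2.77, adjusted p = 0.023). OAS2 held 7 in each line.

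OASL, a relative of the OAS enzymes that lacks their activity, had a log2 fold change of -0.19 ± 0.23 (adjusted p = 0.58). EIF2AK2, the gene for the kinase PKR that blocks translation on binding double-stranded RNA, had 0.07 ± 0.13 (adjusted p = 0.73). ADAR, which edits double-stranded RNA and so limits its detection, was measured at 387, 370 and 426 CPM in HCT116 cells and at 459, 471 and 482 CPM in DNMT3B KO cells. Its libraries did not overlap between the lines, yet the difference of 0.26 ± 0.09 on the log2 scale did not pass the threshold (adjusted p = 0.071). ADAR was called higher under scaling by totals (0.39, adjusted p = 0.0048) and without HCT116 replicate 3 (0.32, adjusted p = 0.03).

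IFIT1 was the member of the IFIT family that rose. IFIT proteins bind foreign RNA and block its translation, and the 4 genes measured lie side by side on chromosome 10. IFIT1 was measured at 4.4, 5.12 and 3.61 CPM in HCT116 cells and at 7.82, 8.55 and 9.8 CPM in DNMT3B KO cells. Each DNMT3B KO library was above each HCT116 library, with a log2 fold change of 0.99 ± 0.18 (adjusted p = 0.0055) and an adjusted p of at most 0.03 without any 1 library. IFIT2, IFIT3 and IFIT5 were not called, with log2 fold changes of -0.02 ± 0.38 (adjusted p = 0.98), 0.41 ± 0.23 (adjusted p = 0.22) and 0.05 ± 0.09 (adjusted p = 0.7). Whether IFIT1 differed from its neighbours in its change was not tested.

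The IFITM proteins, which hinder virus entry at membranes, were lower or not called. IFITM2 gave 73.1, 106 and 64.3 CPM in HCT116 cells and 53.6, 46.2 and 50.4 CPM in DNMT3B KO cells. The groups did not overlap, with HCT116 replicate 2 standing highest, and the log2 fold change was -0.70 ± 0.18 (adjusted p = 0.022). The call was lost without any 1 of the DNMT3B KO libraries (adjusted p from 0.057 to 0.093) and under scaling by totals (adjusted p = 0.062). IFITM3 had a log2 fold change of -0.43 ± 0.17 (adjusted p = 0.1), and without HCT116 replicate 3 it was called lower (-0.52, adjusted p = 0.044). IFITM1 had -0.62 ± 0.68 (adjusted p = 0.54), and its HCT116 mean rested on replicate 2, at 7.91 CPM against 1.23 and 1.33 CPM in replicates 1 and 3. Without that library the direction of IFITM1 turned and it was called higher (0.82, adjusted p = 0.036). Of their 50-base stretches, 70.2% in IFITM1, 78.4% in IFITM2 and 84.6% in IFITM3 are found in no other gene, so part of their reads could have been assigned to another gene.

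ISG15 and its enzymes moved in different directions. USP18, the protease that removes ISG15 from proteins and restrains the type I interferon receptor, was measured at 7.8, 8.49 and 7.54 CPM in HCT116 cells. The DNMT3B KO libraries gave 17.9, 17.6 and 20 CPM. Each exceeded every HCT116 library by a wide margin, and the log2 fold change was 1.22 ± 0.12 (adjusted p = 0.00025). Of the 50-base stretches of USP18, 76.9% are found in no other gene of GENCODE 44, and 11.6% are shared with the most similar gene model, while its near copy USP41 held between 1 and 11 estimated counts per library. HERC5, the ligase that attaches ISG15, stood at 17.7, 20.1 and 17 CPM in HCT116 cells and at 22.7, 23.1 and 27.5 CPM in DNMT3B KO cells.

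The log2 fold change of HERC5 was 0.42 ± 0.12 (adjusted p = 0.034), with no overlap of the lines. It was lost when any 1 library other than HCT116 replicate 2 was left out (adjusted p from 0.053 to 0.13). HERC6, its neighbour on chromosome 4 and a related ligase, had 0.24 ± 0.15 (adjusted p = 0.27). ISG15 itself, a ubiquitin-like protein joined to targets during the interferon response, was measured at 41.9, 42.7 and 45.7 CPM in HCT116 cells and at 35.1, 34 and 33.4 CPM in DNMT3B KO cells. The groups did not overlap and the log2 fold change was -0.34 ± 0.08 (adjusted p = 0.017). With HCT116 replicate 1 or any 1 of the DNMT3B KO libraries left out, the adjusted p of ISG15 was 0.051 to 0.076, and under scaling by totals it was 0.088.

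The 12 other antiviral effectors held the largest decrease among the members, that of SAMD9. SAMD9, a cytoplasmic protein that restricts poxviruses (chr7:93099513-93118023, minus strand), was measured at 9.83, 9.77 and 10.5 CPM in HCT116 cells. In DNMT3B KO cells it stood at 0.111, 0.0839 and 0.183 CPM, from 8, 5 and 12 estimated counts. The HCT116 libraries were nearly equal and none of the DNMT3B KO libraries came near them. The log2 fold change was -6.29 ± 0.28 (adjusted p = 3.7e-06), a 79.8-fold lower mean. SAMD9L, its paralog on the adjacent stretch of chromosome 7, was below the filter, with 13 estimated counts over the HCT116 libraries and 2 over the DNMT3B KO libraries.

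CMPK2, a mitochondrial nucleotide kinase induced by interferon, was measured at 1.6, 1.29 and 0.992 CPM in HCT116 cells and at 0.18, 0.252 and 0.168 CPM in DNMT3B KO cells. The groups were well separated, with a log2 fold change of -2.69 ± 0.34 (adjusted p = 0.00084). CMPK2 runs opposite to RSAD2, the gene for the antiviral enzyme viperin, and the starts of both genes overlap on chromosome 2. RSAD2 was below the filter, with 17 estimated counts over the HCT116 libraries, 15 of them in replicate 2, and 4 over the DNMT3B KO libraries. The kit kept strand information, but the strand setting of the counting is not given in the sources used here.

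SP100, a component of nuclear bodies that restrain incoming viral genomes, was measured at 50.2, 52.3 and 39.7 CPM in HCT116 cells. DNMT3B KO cells had 30.9, 26.4 and 28.6 CPM. The lowest HCT116 library stayed above the highest DNMT3B KO library, and the log2 fold change was -0.73 ± 0.13 (adjusted p = 0.0039), with an adjusted p of at most 0.025 without any 1 library. PARP14, an ADP-ribosyltransferase that acts in interferon signalling, moved the other way. It rose from 34.6, 35.9 and 33.9 CPM in HCT116 cells to 47.4, 41.5 and 47.7 CPM in DNMT3B KO cells, with no overlap and a log2 fold change of 0.39 ± 0.09 (adjusted p = 0.015). Leaving out HCT116 replicate 1, or either replicate 1 or replicate 3 of DNMT3B KO, lost the PARP14 call (adjusted p from 0.068 to 0.069).

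ISG20, an exonuclease that degrades viral RNA, was not called although its libraries did not overlap and its mean was 2.3-fold higher in DNMT3B KO cells. It was measured at 1.81, 3.44 and 0.575 CPM in HCT116 cells and at 4.06, 4.53 and 4.81 CPM in DNMT3B KO cells. The spread lay within HCT116, and the log2 fold change of 1.19 ± 0.51 had an adjusted p of 0.12. ISG20 passed the threshold in DESeq2 (adjusted p = 0.044), without the low-count filter (adjusted p = 0.049) and without HCT116 replicate 2 (adjusted p = 0.0074). TRIM22, a ubiquitin ligase with antiviral activity, was below the filter with 41, 15 and 6 estimated counts in HCT116 cells and 3, 5 and 3 in DNMT3B KO cells. With no filter it was called lower (log2 fold change -2.50, adjusted p = 0.015). The same held in DESeq2 (-2.53, adjusted p = 0.026) and without HCT116 replicate 3 (-2.89, adjusted p = 0.0073).

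None of the remaining effectors and interferon-induced proteins was called with all 6 libraries. PARP9, a partner of PARP14, had a log2 fold change of -0.29 ± 0.23 (adjusted p = 0.39), and without HCT116 replicate 3 it was called lower (-0.50, adjusted p = 0.048). BST2, the tether that holds virus particles at the cell surface, had 0.11 ± 0.38 (adjusted p = 0.86). MX1, a GTPase that blocks influenza viruses, had 0.40 ± 0.32 (adjusted p = 0.4), and its relative MX2 held 2 estimated counts over the HCT116 libraries and 5 over the DNMT3B KO libraries. IFI6, IFI27 and IFI35, which are widely used to read out an interferon response, had 0.10 ± 0.20 (adjusted p = 0.74), 0.00 ± 0.38 (adjusted p = 0.99) and 0.01 ± 0.17 (adjusted p = 0.97). IFI44 had 0.66 ± 0.37 (adjusted p = 0.23). IFI44L held 1 estimated count in each line, and XAF1, a pro-apoptotic interferon target, held 6 and 1.

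Levels of different members were compared as mean CPM per kilobase of merged exons. In HCT116 cells the highest were IFITM3 at 86.3, IFITM2 at 50.5, ISG15 at 50.1, ADAR at 32.2 and MAVS at 16.7. In DNMT3B KO cells the same scale gave IFITM3 64.1, ISG15 39.4, ADAR 38.5, IFITM2 31.2 and IRF3 15.7. Thus the abundant members were largely shared between the lines. At the low end, 13 of the 49 members had a mean under 1 CPM in HCT116 cells and 15 in DNMT3B KO cells. The strongly decreased SAMD9 and TLR3 were of intermediate level in HCT116 cells, at 1.47 and 0.68 CPM per kilobase.

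The members varied more within HCT116 than within DNMT3B KO. HCT116 replicate 2 was the highest HCT116 library for 30 of the 40 tested members, and replicate 3 was the lowest for 29. Both held for 26 members (65%), against 34.2% of all tested genes. Relative to the HCT116 mean, the median log2 level of the members was -0.02, 0.26 and -0.25 in HCT116 replicates 1 to 3 and -0.03, -0.15 and 0.03 in the DNMT3B KO replicates. By this median, the DNMT3B KO libraries lay inside the range of the HCT116 libraries. By summed CPM of the members they did not, with 1409 to 1477 in DNMT3B KO libraries and 1538 to 1737 in HCT116 libraries. The median coefficient of variation was 21.6% in HCT116 and 9.8% in DNMT3B KO for the members, and 16% and 8.51% for all tested genes. The cause of this spread was not tested.

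**Figure D3:**
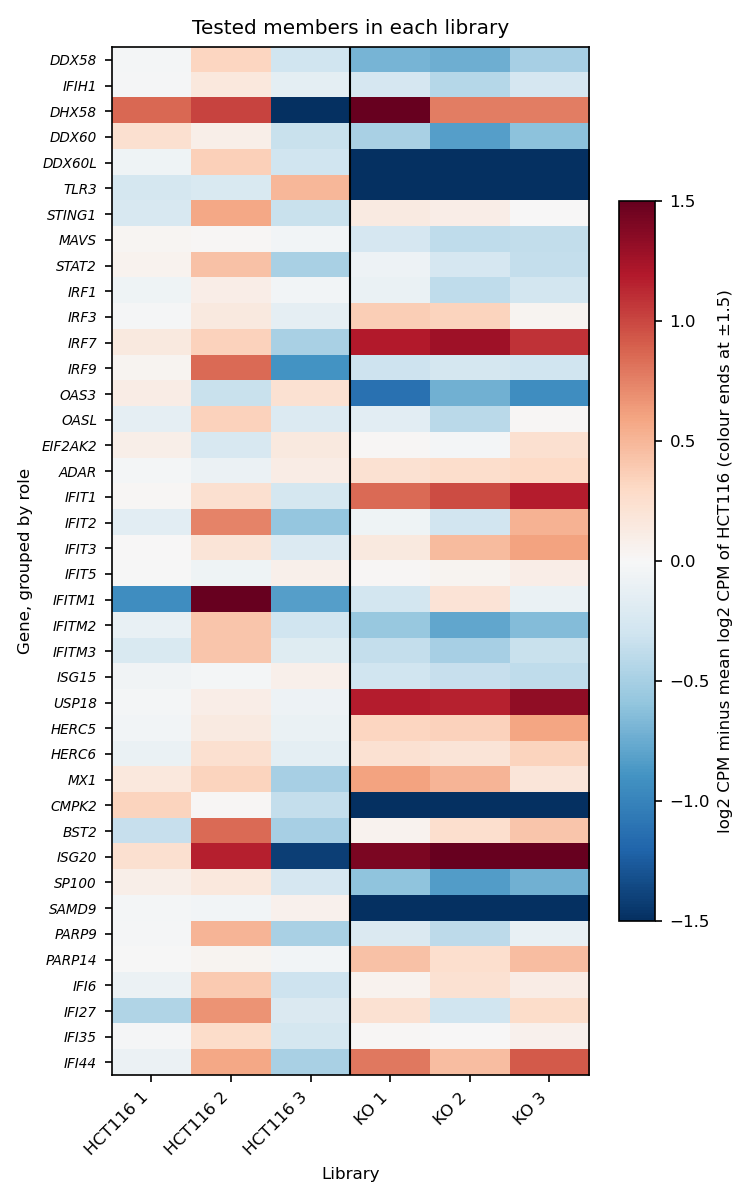
Log2 CPM of the 40 tested members in each of the 6 libraries, minus the mean log2 CPM of the HCT116 libraries, with colours ending at ±1.5. HCT116 replicate 2 is the highest HCT116 library for 30 members and replicate 3 the lowest for 29, while the DNMT3B KO libraries resemble each other.

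The calls fell into 9 members that passed without each library in turn, 3 higher and 6 lower, and 7 that did not. The 7 were DDX58, DDX60, MAVS, IFITM2, ISG15, HERC5 and PARP14, all with absolute log2 fold changes of at most 0.70. The other 9 had changes of at least 0.73. The adjusted p depends on the size of the change, so this split follows in part from the test itself.

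**Figure D4:**
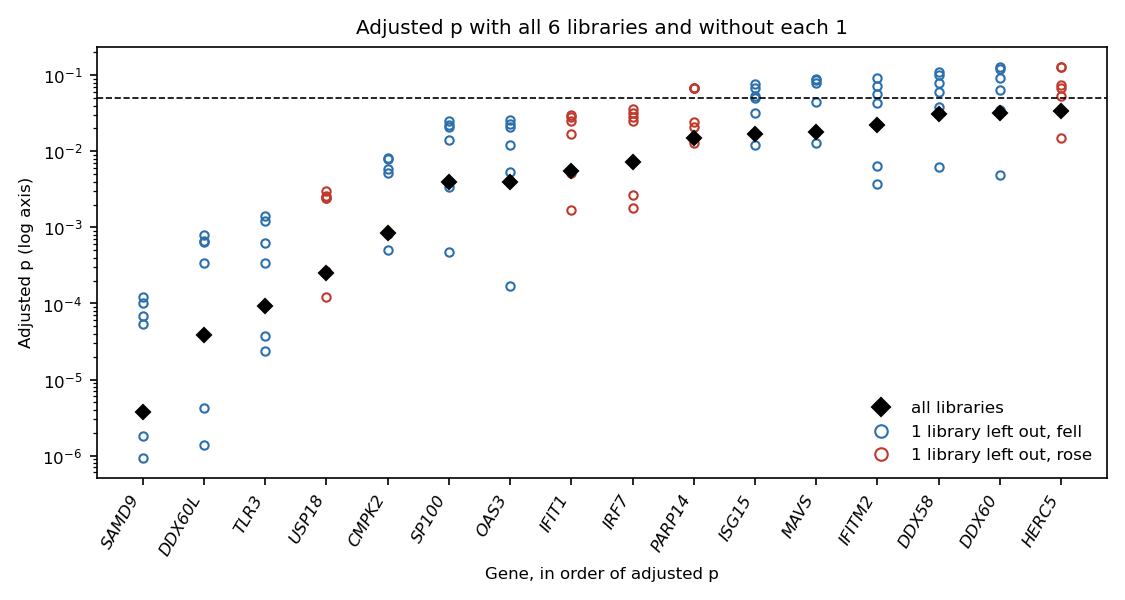
Adjusted p (log axis) of the 16 called members with all 6 libraries (black) and without each library in turn (open circles, blue for members that fell and red for members that rose), with the threshold of 0.05 dashed. All circles of 9 members lie under the line, from SAMD9 to IRF7, and at least 3 circles of each of the other 7 lie above it.

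Genes around the changed members had median changes near 0. Within 5 Mb of TLR3, 34 other genes were tested and had a median log2 fold change of -0.04. Around SAMD9 the median was 0.02 over 39 genes, around DDX60L it was -0.01 over 25 genes and around CMPK2 it was 0.15 over 50 genes. For the members that rose, the median was 0.07 over 92 genes around USP18, -0.14 over 89 genes around IRF7 and -0.01 over 63 genes around IFIT1. Of the 39 genes around SAMD9, 12 were called, and of the 34 around TLR3, 7 were called, against 28.1% of all tested genes. A median near 0 can hold changes of single neighbours in both directions. Whether close neighbours changed together with SAMD9 or TLR3 was not tested.

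RefSeq promoter windows were matched for 37 of the 49 members, DDX58 under its current symbol RIGI. At least 1 ISRE core, GAAANNGAAA on either strand, was found for 24 of the 37 (64.9%), against 4.38% of all 27305 genes with a window and 3.57% of all 35116 windows. Many members were listed as interferon-stimulated genes, which are induced through this element. A higher share than over all genes is therefore built into the choice of list. Among members with a window, those that fell held the core in 6 of 10 cases, and those that rose in 3 of 3 (IFIT1, HERC5 and PARP14). No window was matched for USP18 and IRF7, which rose, or for IFITM2, which fell. The core was also found for 13 of the 19 members with a window that were not called and for 2 of the 5 below the filter. The element was thus present among members of every outcome. The 10-base matches were counted wherever they started, so neighbours such as those of ISG15, HERC5, IFIH1 and BST2 overlap by 4 bases. The gamma-activated site TTCNNNGAA, which reads the same on both strands, was found for 11 of 37 members and for 9.38% of all genes with a window.

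In the printed windows the SAMD9 core starts 136 bases before the annotated start and that of TLR3 spans it. DDX60L, OAS3 and IFIT1 hold 2 cores each, and PARP14 holds 1. CMPK2, SP100, MAVS and DDX58, which fell, held no core in their windows. CpG sites, the substrate of DNMT3B, numbered 4 in the window of SAMD9, 5 in TLR3, 12 in DDX60L, 20 in OAS3, 4 in IFIT1 and 19 in PARP14, against a median of 14 over all windows. A match describes letters in a window, and methylation of these sites was not analysed here.

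**Figure D5:**
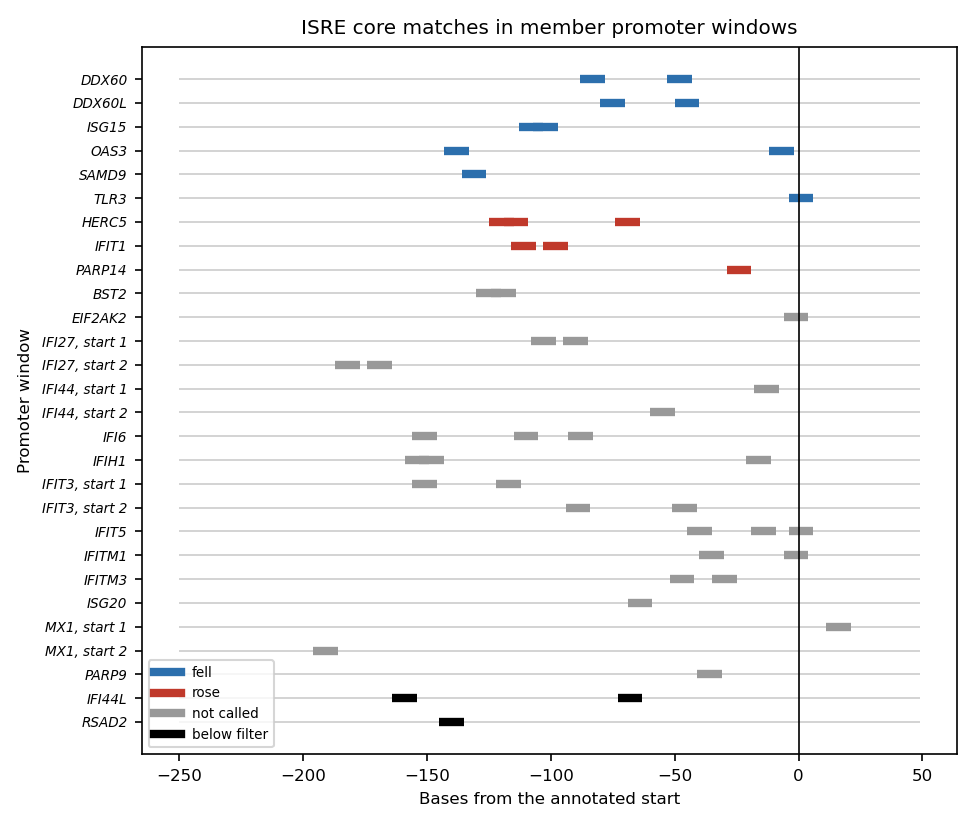
Positions of ISRE core matches in bases from the annotated start (0) in the promoter windows that hold at least 1, coloured by whether the member fell, rose, was not called or was below the filter. Matches lie before or across the start in members of every outcome, apart from an MX1 match after it.

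Interferon genes themselves were barely counted. Of 22 ligand genes, 17 had no estimated count in any library, and a count of 0 allows up to 3 counts, or 0.0416 to 0.0595 CPM depending on the library. IFNB1, the interferon beta gene, had 1 estimated count, in DNMT3B KO replicate 3. IFNE, an epithelial interferon, had 6, 7 and 5 in the HCT116 libraries and 3, 0 and 1 in the DNMT3B KO libraries. The IFNE libraries did not overlap between the lines, but no ligand passed the low-count filter and none was tested.

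The receptors and the JAK-STAT proteins were all tested, and of the 11 genes 1 rose, 1 fell and 9 were not called. Thus 18.2% were called, against 28.1% of all tested genes. IFNLR1, the receptor chain for interferon lambda, rose by 0.41 ± 0.11 on the log2 scale (adjusted p = 0.025). STAT3, a signal transducer shared with other cytokines, fell by 1.22 on the log2 scale (adjusted p = 0.0012). Of 22 tested genes that signal downstream of the sensors, none rose and 4 fell, namely TANK at -0.76 ± 0.10, TRIM25, the ligase that activates RIG-I, at -0.45 ± 0.09, TICAM1, the adaptor of TLR3, at -0.40 ± 0.09, and IRF5 at -0.54 ± 0.15 (adjusted p = 0.00091, 0.0091, 0.012 and 0.032). These 4 were 18.2% of that list, while 15.1% of all tested genes fell. Of 22 genes that restrain sensing or signalling, 1 rose (RNASEH2A, 0.42 ± 0.09, adjusted p = 0.01) and 4 fell (RNASEH2B, PTPN1, IRF2 and SOCS3), so that 22.7% were called against 28.1% of all tested genes. RNASEH2A and RNASEH2B are subunits of the same RNase.

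A further list held 48 interferon-inducible genes outside the members, of which 40 were tested. Of these, 3 rose and 6 fell, so that 22.5% were called against 28.1% of all tested genes, with a median log2 fold change of -0.18. TRIM38 had the largest called decrease (-1.90 ± 0.25, adjusted p = 0.001), followed by PARP12 (-0.97 ± 0.12, adjusted p = 0.00079) and ZNFX1 (-0.88 ± 0.09, adjusted p = 0.00025). NCOA7 rose by 0.67 ± 0.11 (adjusted p = 0.0032). Without 1 library between 1 and 5 of these genes rose, 5 without HCT116 replicate 2 and 1 without DNMT3B KO replicate 1 or 2, and between 3 and 9 fell, 3 without DNMT3B KO replicate 1.

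Of 12 annotated endogenous retroviral genes that were found, 4 were tested and 1 rose (25%), against 12.9% of all tested genes. ERVK3-1 rose by 0.66 ± 0.20 (adjusted p = 0.038), from 20.1, 15 and 24.6 CPM to 29.6, 37.7 and 27.2 CPM. ERVK13-1 and ERVMER34-1 had log2 fold changes of 0.76 ± 0.25 and 0.34 ± 0.12 and were not called (adjusted p = 0.051 and 0.07), and ERV3-1 had 0.03 ± 0.29 (adjusted p = 0.95). Repeat copies that are not annotated as genes, which make up most retroviral sequence, were not analysed here, so the RNA that would engage the sensors was not measured.

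The libraries held 55436267 to 68274783 estimated counts. DNMT3B itself was measured at 38.5, 30.1 and 39.5 CPM in HCT116 cells and at 2.54, 2.87 and 2.83 CPM in DNMT3B KO cells (log2 fold change -3.71 ± 0.15, adjusted p = 2.5e-06), lower in the libraries labelled as knockout. Of 10 markers of colorectal epithelium, EPCAM stood at 272 to 327 CPM and CDX2 at 19.6 to 23.5 CPM in all libraries. Neither EPCAM nor CDX2 was called. CDH1, KRT8, KRT18, KRT19 and KRT20 fell, VIL1 rose, and CDX1 and CDH17 were near 0 in both lines. Leukocyte markers summed to 6.09 to 15.7 CPM in HCT116 and 16.2 to 21.6 CPM in DNMT3B KO libraries, mostly CD68, with PTPRC at most 0.335 CPM and MS4A1 at 0. PTPRC rose. Fibroblast markers summed to 9.98 to 19.9 and 15.4 to 18 CPM, mostly COL1A1, with LUM at 0 and PDGFRB higher in DNMT3B KO (log2 fold change 2.95 ± 0.33, adjusted p = 0.00043), and endothelial markers to 0.674 to 1.6 and 1.49 to 2.01 CPM. The part of these differences in the results was not tested.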

How the data were processed

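Stranded mRNA libraries of 3 HCT116 and 3 DNMT3B KO samples underwent paired-end sequencing. The authors aligned them to hg38 with STAR and counted Ensembl/GENCODE transcripts with Salmon in the nf-core/rnaseq workflow, and deposited estimated counts per gene scaled for gene length. Scaling for length removes differences in isoform length between libraries but leaves values that are not whole, and the counts were therefore rounded here.

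Genes were filtered with filterByExpr and tested with edgeR 4.0.16 (glmQLFit and glmQLFTest, TMM factors, genotype as the only factor) in R 4.3.3, with adjusted p under 0.05 over 16959 genes. The SE is the absolute log2 fold change over the square root of F. CPM values use TMM-scaled totals. DESeq2 1.42.0 served as an alternative. The functions were tested on simulated data. Lengths, positions and the shared 50-base stretches come from GENCODE 44 on GRCh38, and promoters from RefSeq. Exon lengths merge all isoforms, used or not.

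Groups came from the labels. Deviations of same-numbered libraries from their group means correlated at 0.0641, -0.00963 and 0.122 across genes, so replicate numbers were not taken to pair libraries. The members and lists were chosen with earlier results of these data known. Every tested member is named with its test. Called members, and members with at least a 2-fold difference and no overlap, are given with all libraries. Of the other lists, up to 4 called genes with the smallest adjusted p are named, except that all 5 are named for the genes that restrain signalling, the ligands, retroviral genes and markers were named after their values were seen, and members below the filter are given by counts. Some genes of these lists are not reported here.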

Additional observations from a re-analysis of the deposited data

How the results depend on the processing

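At an adjusted p under 0.01 instead of 0.05, 3 members rose and 6 fell, 1 and 3 of the other interferon-inducible genes rose and fell, and 1077 and 1571 of all tested genes did. Scaling by library totals alone gave 6 members that fell and 3349 of all genes that rose. Size factors by the median-ratio method, DESeq2, both other filters and unrounded counts each left between 5 and 6 members that rose and between 10 and 12 that fell. A replicate block, added although the replicate numbers do not pair the libraries, gave 4 members that rose and 10 that fell, 1890 and 2324 of all genes, 3 and 4 of the other interferon-inducible genes, and a median log2 fold change of the members of 0.04. DDX58 and HERC5 lost their calls under the block (adjusted p = 0.064 and 0.067). Leaving out 1 library at a time gave 3 to 8 members that rose and 6 to 17 that fell, 1283 to 2868 of all genes that rose and 1758 to 3143 that fell, and 1 to 5 and 3 to 9 of the other interferon-inducible genes. The median of the members ranged from -0.26 to 0.10 in these fits, and was -0.20 in DESeq2, -0.19 with no filter and -0.18 with a minimum of 1 CPM. The cause of these shifts was not tested. CMPK2 could not be tested with a minimum of 1 CPM in 3 libraries, which its levels do not reach.

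Some members that were not called changed direction. IFIT2 turned to 0.10 under library totals and 0.05 under the replicate block, and IFI27 to -0.02 with unrounded counts. Without 1 library, log2 fold changes ranged from -0.14 to 0.36 for STING1, -0.79 to 0.04 for IRF9, -0.05 to 0.15 for EIF2AK2, -0.28 to 0.44 for IFIT2, -1.03 to 0.82 for IFITM1, -0.12 to 0.65 for BST2, -0.03 to 0.32 for IFI6, -0.21 to 0.42 for IFI27 and -0.10 to 0.15 for IFI35. None of the 16 called members changed direction under any alternative run. With 3 libraries per line, genes of few counts such as OAS1, TRIM22 and RSAD2 remain unresolved at this depth. OAS1 and TRIM22 were called lower in some alternative runs, and RSAD2 in none.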
